A study of Homo sapiens with 4 samples.

Results

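The histone deacetylase genes HDAC1 to HDAC10 were followed in OCI-AML3 cells, an established human acute myeloid leukemia (AML) line, with and without CRISPR knockout of mutant NPM1 (mtNPM1). The 10 genes were chosen by name, and all 10 were found by Ensembl identifier among the 58037 genes of the count table. Cells were transfected with the guide sgNPM1A, directed at the mutant NPM1 allele, or with the control guide sgNeg (sgRNA Ctrl), and were harvested 3 days (72 hours) later, with 2 libraries per guide. Both groups come from the same parental line, which is heterozygous for mutations in NPM1, the target of sgNPM1A, and in DNMT3A and homozygous for an NRAS mutation. Each library is bulk RNA from a transfected culture of a single cell line, so the share of edited cells is not measured by these counts, and fewer cells of a kind cannot be told apart from less RNA per cell.

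Histone deacetylases remove acetyl groups from lysines of histones and other proteins, and histone deacetylation generally goes with compact chromatin and low transcription. The class I enzymes (HDAC1, HDAC2, HDAC3 and HDAC8) are mostly nuclear, and the first 3 are the catalytic subunits of large corepressor complexes. The class IIa enzymes (HDAC4, HDAC5, HDAC7 and HDAC9) have little deacetylase activity of their own, shuttle between nucleus and cytoplasm under the control of kinases and 14-3-3 proteins, and hold back MEF2 transcription factors. The class IIb enzymes (HDAC6 and HDAC10) act mainly in the cytoplasm, HDAC6 on tubulin and HDAC10 on acetylated polyamines. HDAC inhibitors are among the drugs that the study took up after it queried a drug database with the RNA-Seq signature of mtNPM1 KO, which is why the levels of their target genes are of interest here.

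The libraries held between 25069484 and 28276391 counts, and 15718 genes passed the filter on low counts and were tested with edgeR's quasi-likelihood F test. Calls needed a Benjamini-Hochberg adjusted p below 0.05 over all tested genes and a change of at least 0.32 on the log2 scale, which is a rise of 25% or more or a fall of matching size. SE is the standard error of a log2 fold change (log2 change). NPM1, the targeted gene, had 1318.7 and 1385.4 CPM (counts scaled to library size, TMM-normalized) with sgNeg and 1189.4 and 1131.9 CPM with sgNPM1A. Its fold change of 0.858 (log2 change -0.22, SE 0.07, edgeR adjusted p = 0.0360) stayed inside the fold threshold, and reads of both alleles of NPM1 are added up in these values. With replicate numbers as a block in the model the adjusted p was 0.156. Of 9 markers of myeloid cells, all were detected and 6 were called higher, where 10.5% of all tested genes were called higher. Their summed level was 2013.36 and 2028.79 CPM with sgNeg against 5125.23 and 5845.5 CPM with sgNPM1A. Most of the rise in the sum came from LYZ (lysozyme), with means of 242.9 CPM with sgNeg and 3005.0 CPM with sgNPM1A. The log2 change of LYZ was 3.63 (SE 0.13, edgeR adjusted p = 3.94e-08). The defining T cell markers CD3D and CD3E and the B cell marker MS4A1 were at 0 counts in all 4 libraries, and the 4 erythroid markers summed to at most 0.19 CPM. The part of the rise in myeloid genes in the results on HDAC genes was not tested.

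mtNPM1 KO went with a small number of changed HDAC genes. HDAC4 rose 1.57-fold and HDAC7 fell to 0.769 of its control level, and the other 8 genes were not called, so that 1 of the 10 was called higher and 1 lower. Over all tested genes 20.8% were called, 10.5% higher and 10.3% lower, so the share of HDAC genes called, 20.0%, lay next to the background. At an adjusted p under 0.05 without a fold threshold 5 of the 10 genes passed, against 26.0% of all tested genes. The median log2 change was 0.19 over the 10 genes and 0.00 over all tested genes, with 6 genes higher and 4 lower. The ranges of the conditions did not overlap in any of the 10 genes, as in 63.1% of all tested genes.

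**Figure D1:**
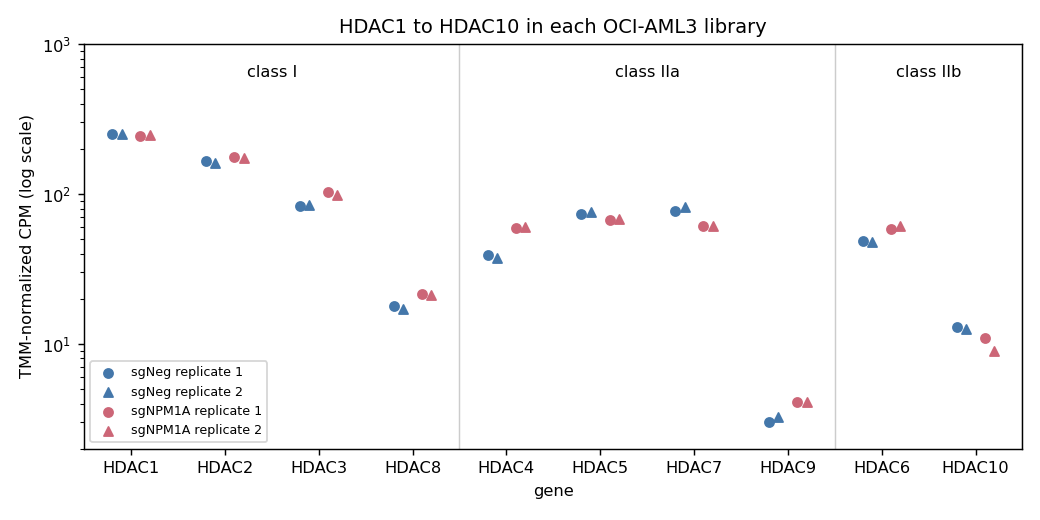
TMM-normalized CPM (vertical axis, log scale) of each HDAC gene (horizontal axis, ordered by class) in the 4 libraries, 1 point per library, circles for replicate 1 and triangles for replicate 2, blue for sgNeg and red for sgNPM1A. The points of a condition lie close together, the red points of HDAC4 (59.5 and 60.4 CPM) lie above the blue ones (39.1 and 37.3 CPM), and those of HDAC7 (60.8 and 61.2 CPM) lie below (77.2 and 81.4 CPM).

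Levels of different genes were compared per kilobase of the canonical transcript. On that scale HDAC1 was the most abundant gene in every library, with 119 and 118 CPM per kb in sgNeg and 114 and 116 in sgNPM1A. HDAC3 followed with a mean of 43.3 CPM per kb in sgNeg, then HDAC7 with 18.8, HDAC2 with 16.7, HDAC5 with 14.1, HDAC6 with 11.7 and HDAC8 with 10.0. HDAC10 with 4.98, HDAC4 with 4.52 and HDAC9 with 0.317 CPM per kb were the least abundant. No neighbours in this order overlapped between their sgNeg libraries. In sgNPM1A the order of the middle of the list differed, with HDAC2 (18.1 CPM per kb) and HDAC6 (14.5) ahead of HDAC7 (14.5) and HDAC5 (12.7), and HDAC4 (7.09) ahead of HDAC10 (3.86). The libraries of HDAC6 (14.1 and 14.9 CPM per kb) and HDAC7 (14.4 and 14.5) overlapped there. Levels per kb depend on the length used, and the canonical transcript of HDAC2, 9737 bases, is long for an HDAC gene of class I. With the length of all exons of a gene in place of the canonical transcript, HDAC1 and HDAC3 stayed first and second and HDAC9 last. HDAC8 moved from rank 7 to rank 9 in sgNeg. On that length HDAC2, HDAC5 and HDAC7 held ranks 3, 4 and 5 in both conditions, and HDAC4 was ahead of HDAC10 in both. Only HDAC6 and HDAC4 changed places, and their sgNPM1A libraries overlapped. The different order in sgNPM1A per kb of canonical transcript thus depended on the length used.

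Summed over the 10 genes, the level was 243 CPM per kb in each sgNeg library and 252 and 251 in the sgNPM1A libraries. Class I genes made up 77.8% and 77.4% of that sum with sgNeg and 79.0% and 78.8% with sgNPM1A. The share of class IIa was 15.3% and 15.8% with sgNeg and 13.7% and 13.9% with sgNPM1A, and that of class IIb 6.92% and 6.83% against 7.31% and 7.32%. The shares of the 3 classes did not overlap between the conditions on this scale, as levels did not in 63.1% of all tested genes. They add up to 100% in each library, so they are not separate results. Within class I the mean of HDAC3 rose from 43.3 CPM per kb with sgNeg to 52.4 with sgNPM1A, and that of HDAC1 went from 118 to 115. Within class IIa HDAC4 went up (4.52 to 7.09) while HDAC7 went down (18.8 to 14.5). With the length of all exons the shares of class I and class IIa again did not overlap, while those of class IIb did, as the 4.97% of sgNPM1A replicate 2 lay between the sgNeg libraries.

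**Figure D2:**
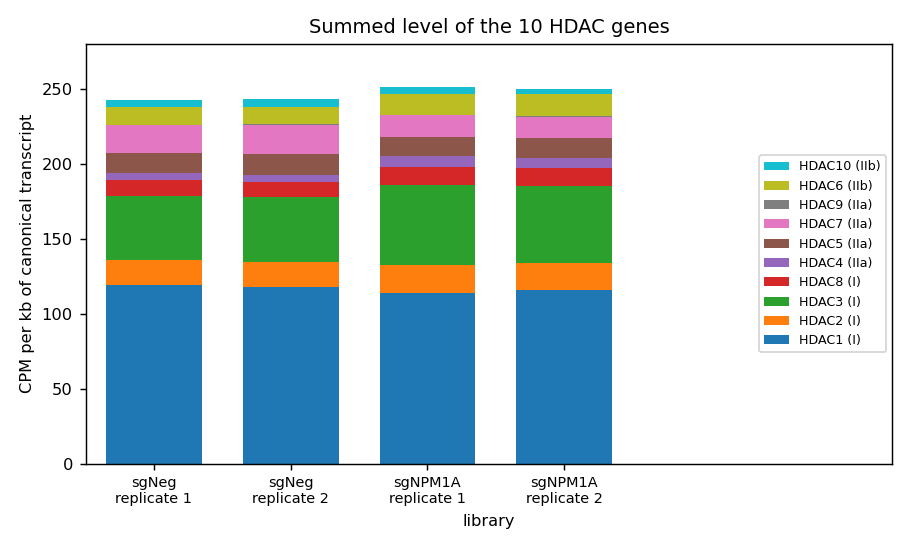
Stacked level of the 10 HDAC genes (vertical axis, CPM per kb of canonical transcript) in each library (horizontal axis), 1 colour per gene. HDAC1 and HDAC3 fill most of each bar, and the bars sum to between 243 and 252 CPM per kb.

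None of the 4 class I genes was called. HDAC1, on chromosome 1 of GRCh38 from 32292083 to 32333626, had 251.5 and 250.3 CPM with sgNeg and 242.4 and 246.2 CPM with sgNPM1A. The sgNPM1A values were the lower ones by a small margin, with a log2 change of -0.04 (SE 0.06, 95% interval -0.18 to 0.10, edgeR adjusted p = 0.697), so that a change of HDAC1 beyond the fold threshold, 0.32 on the log2 scale, lies outside the interval. HDAC2, the close paralog of HDAC1 and its partner in the same complexes, lies on chromosome 6 from 113933028 to 113971148 and had 165.3 and 159.9 CPM with sgNeg and 176.9 and 174.6 CPM with sgNPM1A. Its log2 change was 0.11 (SE 0.06, 95% interval -0.03 to 0.25, edgeR adjusted p = 0.227), and its interval too stayed within the fold threshold. HDAC1 and HDAC2 share 0.212% and 0.160% of their 50-base words with other genes. The antisense transcript HDAC2-AS2, which overlaps 69 exonic bases of HDAC2, rose from 12 counts in each sgNeg library to 28 and 33 counts (log2 change 1.22, edgeR adjusted p = 0.0202; 0.154 with DESeq2). These are at most 33 counts beside 4140 or more on HDAC2.

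HDAC3, the catalytic subunit of the NCoR complex, lies on chromosome 5 from 141620881 to 141636849. It had 82.8 and 84.6 CPM with sgNeg and 103.8 and 98.8 CPM with sgNPM1A, so the sgNPM1A libraries were both the higher ones. The fold change was 1.21 (log2 change 0.28, SE 0.07, 95% interval 0.12 to 0.43, edgeR adjusted p = 0.0130), past the p threshold and short of the fold threshold. HDAC8, a class I enzyme that deacetylates the cohesin subunit SMC3, lies on the X chromosome from 72329516 to 72572843 and had 18.0 and 17.2 CPM with sgNeg and 21.5 and 21.3 CPM with sgNPM1A. It had a fold change of 1.22 (log2 change 0.28, SE 0.09, edgeR adjusted p = 0.0472) and was likewise not called. Of the 50-base words of HDAC8 5.32% occur in other genes. A protein-coding gene annotated on the same strand shares 1193 of the 22888 exonic bases of HDAC8. Of the 50-base words of HDAC3 7.38% occur elsewhere. A noncoding gene on the opposite strand shares 426 of the 4610 exonic bases of HDAC3 and had at most 2 counts in a library. The p of HDAC8 was above 0.05 with DESeq2 (0.149) and with the replicate block (0.135), and that of HDAC3 was 0.0539 with the block and 0.213 without sgNPM1A replicate 1.

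The class IIa genes held both calls, in opposite directions. HDAC4, a class IIa corepressor of MEF2 and RUNX factors, lies on chromosome 2 from 239048168 to 239401649. It had 995 and 967 counts with sgNeg and 1658 and 1678 counts with sgNPM1A, which are 39.1, 37.3, 59.5 and 60.4 CPM. Both sgNPM1A libraries were well above both sgNeg libraries. Mean levels were 38.2 ± 1.28 CPM and 60.0 ± 0.672 CPM (SD, n = 2), and HDAC4 rose by 0.65 on the log2 scale (SE 0.08, 95% interval 0.48 to 0.82, edgeR adjusted p = 9.38e-05). HDAC4 was called under each of the 13 alternative fits, with log2 fold changes between 0.61 and 0.68 and adjusted p-values of 0.000952 or less. Of its 50-base words 2.35% occur in other genes. A noncoding gene without a symbol on the opposite strand shares 258 of the 14179 exonic bases of HDAC4, and the antisense gene HDAC4-AS1 shares 101.

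HDAC7, the class IIa enzyme best known from lymphocytes and blood vessels, lies on chromosome 12 from 47782722 to 47821344. It had 1963 and 2107 counts with sgNeg and 1694 and 1698 counts with sgNPM1A, or 77.2, 81.4, 60.8 and 61.2 CPM. Both sgNPM1A libraries were below both sgNeg libraries, and the means were 79.3 ± 2.92 and 61.0 ± 0.268 CPM (SD, n = 2). The log2 change was -0.38 (SE 0.07, 95% interval -0.54 to -0.22, edgeR adjusted p = 0.00263). HDAC7 was also called under each of the 13 alternative fits, with log2 fold changes between -0.42 and -0.34 and adjusted p-values of 0.0375 or less. The interval reaches inside the fold threshold. Of the 50-base words of HDAC7 8.77% occur in other genes, 2 noncoding genes on the opposite strand, of which the one with the longer overlap had at most 4 counts in a library. With HDAC4 rising and HDAC7 falling, the per-kb ratio of HDAC7 to HDAC4 was 3.96 and 4.38 in the sgNeg libraries and 2.05 and 2.03 in the sgNPM1A libraries. The ratio of HDAC5 to HDAC4 likewise went from 2.99 and 3.26 to 1.80 and 1.78.

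HDAC5, a paralog of HDAC4 with overlapping roles, lies on chromosome 17 from 44076753 to 44123641 and had 73.5 and 76.4 CPM with sgNeg and 67.3 and 67.6 CPM with sgNPM1A. The sgNPM1A values were lower, with a log2 change of -0.15 (SE 0.07, 95% interval -0.31 to 0.00, edgeR adjusted p = 0.144), and the gene was not called. The gene G6PC3, annotated on the opposite strand, shares 24.0% of the exonic bases of HDAC5 and 20.2% of its 50-base words. G6PC3 itself fell from 90.7 and 85.6 CPM to 70.5 and 66.2 CPM (fold change 0.775, edgeR adjusted p = 0.00375), and whether the counting used strand is not given in the sources used here. The part of G6PC3 reads in the value of HDAC5 was not tested.

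HDAC9, whose short isoform MITR lacks the catalytic domain, was the gene with the fewest counts, on chromosome 7 from 18086825 to 19002416. It had 77 and 84 counts with sgNeg and 115 and 114 counts with sgNPM1A, which are 3.03, 3.24, 4.13 and 4.11 CPM. Both sgNPM1A libraries were higher, by 1.31-fold, and the log2 change was 0.39 (SE 0.17, 95% interval 0.02 to 0.76, edgeR adjusted p = 0.114). HDAC9 was not called, and its SE was larger than that of any other HDAC gene.

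**Figure D3:**
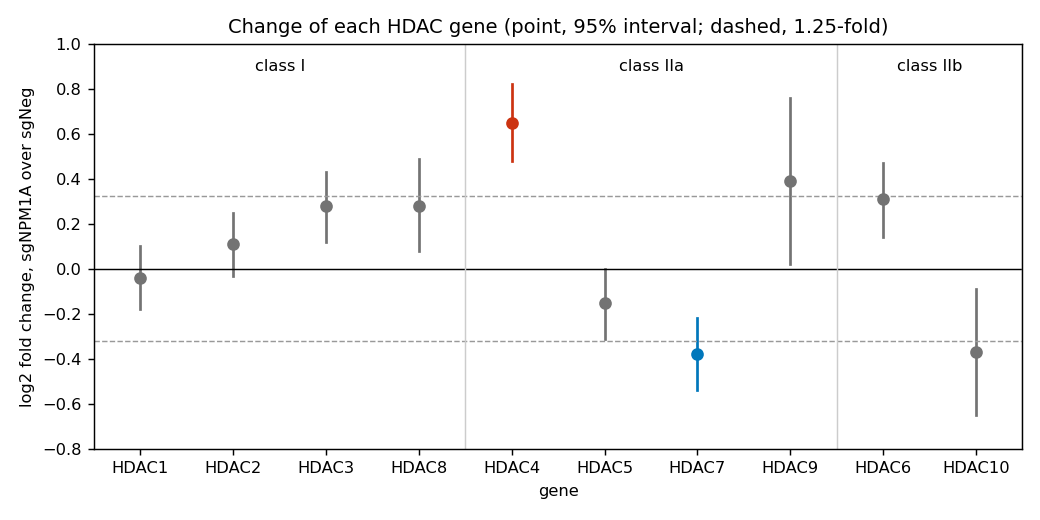
Log2 fold change of sgNPM1A over sgNeg (vertical axis) for each HDAC gene (horizontal axis, ordered by class), with the 95% interval of the edgeR fit as a bar and the fold threshold as dashed lines. HDAC4 (0.65, red) and HDAC7 (-0.38, blue) are the 2 genes called, and the intervals of HDAC1, HDAC2 and HDAC5 include or touch 0.

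MEF2 factors, the best known partners of class IIa enzymes, are also known to bind the HDAC9 promoter, so the promoters of HDAC4, HDAC7 and HDAC9 are shown here with matches to the MEF2 motif in capitals. The windows run from 250 bases before to 30 bases after a start site of RefSeq on GRCh38.p14, 5′ to 3′ on the strand of the gene. They are chr2:239401620-239401899 on the minus strand for HDAC4 (the farthest upstream of its 5 listed starts), chr12:47819874-47820153 on the minus strand for HDAC7 and chr7:18086575-18086854 on the plus strand for HDAC9 (the farthest upstream of 5):
HDAC4: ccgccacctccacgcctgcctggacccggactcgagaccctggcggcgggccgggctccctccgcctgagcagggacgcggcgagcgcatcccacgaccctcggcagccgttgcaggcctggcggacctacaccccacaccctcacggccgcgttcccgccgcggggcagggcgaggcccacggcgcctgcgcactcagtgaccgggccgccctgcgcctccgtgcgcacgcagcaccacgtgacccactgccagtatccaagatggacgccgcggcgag
HDAC7: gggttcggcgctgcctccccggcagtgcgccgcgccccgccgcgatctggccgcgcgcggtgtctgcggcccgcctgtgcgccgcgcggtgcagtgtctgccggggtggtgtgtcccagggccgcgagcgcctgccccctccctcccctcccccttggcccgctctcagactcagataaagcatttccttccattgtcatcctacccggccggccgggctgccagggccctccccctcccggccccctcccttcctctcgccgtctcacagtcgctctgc
HDAC9: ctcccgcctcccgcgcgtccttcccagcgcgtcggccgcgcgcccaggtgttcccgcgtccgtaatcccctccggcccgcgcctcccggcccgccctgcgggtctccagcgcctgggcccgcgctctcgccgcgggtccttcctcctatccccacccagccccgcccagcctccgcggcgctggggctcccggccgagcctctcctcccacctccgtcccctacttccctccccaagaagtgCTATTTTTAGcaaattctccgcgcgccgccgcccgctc
The HDAC9 window holds 1 MEF2 motif, which starts 8 bases before the start site, and the HDAC4 and HDAC7 windows hold none. The listed HDAC7 window lies inside the gene, whose span on chromosome 12 reaches 47821344. The upstream end of HDAC7 was not searched. Among the 35116 promoter windows of the same length, 2.92% hold this motif, which reads the same way on both strands, and of the 19 windows listed for 9 of the HDAC genes it is in 1. GC boxes (GGGCGG or its reverse complement CCGCCC) are in 8 of the 19 windows and in 44.1% of all windows. The HDAC7 window has a GC content of 74.3%, that of HDAC4 75.7% and that of HDAC9 75.0%. The counts do not show which start site was used in these cells, and a match is no evidence of binding.

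Neither class IIb gene was called. HDAC6, the tubulin deacetylase, lies on the X chromosome from 48801398 to 48824982 and had 48.4 and 48.2 CPM with sgNeg and 58.2 and 61.2 CPM with sgNPM1A. Its sgNPM1A values were the higher ones by a fold change of 1.24, just short of the threshold (log2 change 0.31, SE 0.08, 95% interval 0.14 to 0.47, edgeR adjusted p = 0.0116). The adjusted p of HDAC6 was 0.0640 without sgNPM1A replicate 1, where its log2 change was 0.34, and 0.184 without sgNPM1A replicate 2. HDAC10, the polyamine deacetylase, lies on chromosome 22 from 50245183 to 50251265 and had 12.9 and 12.6 CPM with sgNeg and 10.9 and 8.93 CPM with sgNPM1A. The 2 sgNPM1A libraries differed from each other about as much as the nearer of them did from the controls, and the log2 change of -0.37 (SE 0.13, 95% interval -0.65 to -0.09) had an adjusted p of 0.0556 (edgeR). Without sgNPM1A replicate 1 it was called lower (log2 change -0.51, edgeR adjusted p = 0.0306), and without sgNPM1A replicate 2 it was not (-0.23, edgeR adjusted p = 0.469). Of the 50-base words of HDAC10, 60.6% also occur in other genes, namely MAPK12, annotated on the same strand over 55.8% of the exonic bases of HDAC10, and a noncoding gene on the opposite strand. MAPK12 had 109.9 and 117.0 CPM with sgNeg and 96.0 and 92.5 CPM with sgNPM1A (fold change 0.831, edgeR adjusted p = 0.0156). Reads in the shared bases cannot be assigned to 1 of these genes by sequence, so the level of HDAC10 is uncertain. The per-kb ratio of HDAC10 to HDAC6 was 0.429 and 0.420 with sgNeg and 0.300 and 0.234 with sgNPM1A.

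The genes that work with these enzymes were followed in lists of complexes and partners, 96 genes in all, of which 91 were tested. Among them 8 were called higher and 6 lower (10 lower without sgNeg replicate 2), 15.4% of those tested against 20.8% of all tested genes, and their median log2 change was -0.05. Of the other deacetylases, HDAC11 (the only class IV enzyme) and the 7 NAD-dependent sirtuins, 1 of 8 was called. SIRT5, a mitochondrial enzyme that removes succinyl and malonyl groups, rose from 141 and 143 counts to 301 and 332 counts, a log2 change of 1.04 (SE 0.13, edgeR adjusted p = 0.000153). HDAC11 went from 81 and 79 to 111 and 92 counts (log2 change 0.23, edgeR adjusted p = 0.403). SIRT1, the nuclear sirtuin related to yeast Sir2, had a log2 change of -0.15, SIRT2 0.06, SIRT3 0.05, SIRT4 -0.05, SIRT6 -0.11 and SIRT7 0.14, none of them called.

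**Figure D4:**
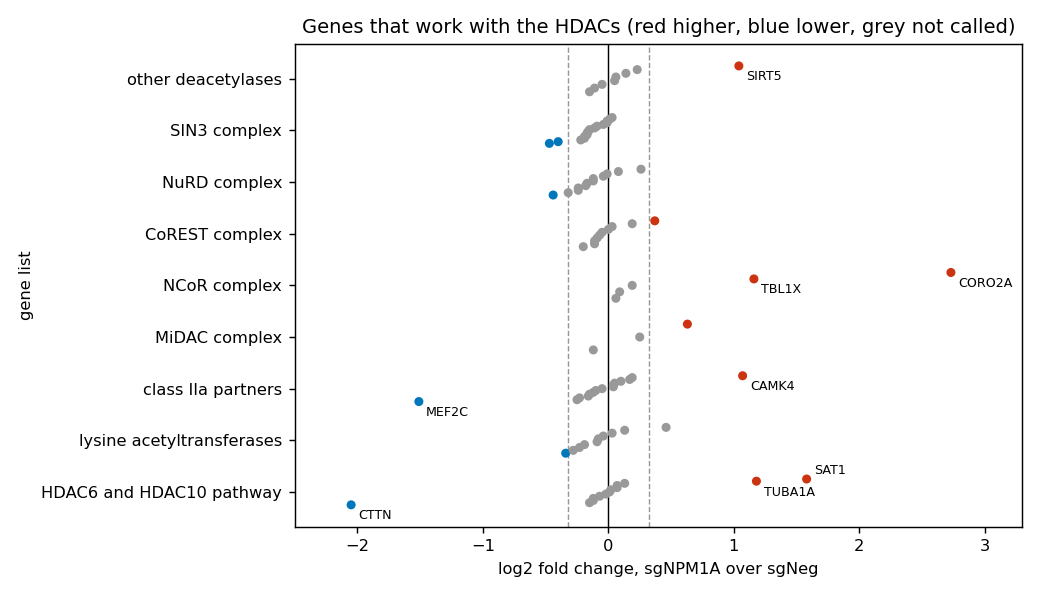
Log2 fold change of sgNPM1A over sgNeg (horizontal axis) for the tested genes of 9 lists, with 1 gene of the NCoR complex left out (vertical axis), 1 point per gene, red when called higher, blue when called lower and grey otherwise, with dashed lines at the fold threshold. Most points lie between the dashed lines, and CORO2A, SAT1, TUBA1A, TBL1X, CAMK4 and SIRT5 to the right and MEF2C and CTTN to the left are past a log2 change of 1.

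HDAC1 and HDAC2 work in the SIN3, NuRD, CoREST and MiDAC complexes, whose subunits were called in shares on both sides of the 20.8% of all tested genes. In the SIN3 complex 2 of 16 genes (12.5%) were called, both lower, and the median log2 change was -0.15, with 14 of the 16 below 0. The 2 were the paralogs ARID4A and ARID4B, chromatin-binding subunits. ARID4A fell from 88.9 to 64.0 CPM (mean of 2 libraries; log2 fold change -0.47, SE 0.08, edgeR adjusted p = 0.000974) and ARID4B fell from 132.3 to 100.3 CPM (log2 change -0.40, edgeR adjusted p = 0.00195). The scaffolds SIN3A and SIN3B had log2 fold changes of -0.17 and -0.09 and were not called. In the NuRD complex 1 of 12 tested genes (8.33%) was called, and the median was -0.14. It was CDK2AP1, a small NuRD subunit, which fell from 35.8 to 26.3 CPM (log2 change -0.44, SE 0.09, edgeR adjusted p = 0.00451). The remodelling ATPase CHD4 had a log2 change of -0.24 (edgeR adjusted p = 0.0217) and MTA2 one of -0.12 (adjusted p = 0.201), both under the fold threshold. The CDK2AP1 call was lost without sgNPM1A replicate 2, 2 NuRD genes were called lower without sgNeg replicate 2, and 1 was called higher without sgNeg replicate 1. In the CoREST complex GSE1 rose (log2 change 0.37, edgeR adjusted p = 0.00201) as the only 1 of 10 genes called (2 without sgNeg replicate 1), while the scaffold RCOR1 (0.19) and the histone demethylase KDM1A (means of 114.1 CPM with sgNeg and 113.7 CPM with sgNPM1A) were not called. In the MiDAC complex 1 of 3 genes was called (2 without sgNeg replicate 2). TRERF1 rose by a log2 change of 0.63 (edgeR adjusted p = 0.000855). DNTTIP1 had 0.25 (edgeR adjusted p = 0.0406) and MIDEAS had -0.12 (edgeR adjusted p = 0.363), and neither was called.

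HDAC3 works with the corepressor NCoR, encoded by NCOR1, and 2 of the 6 genes listed for this complex were called, both higher, against 20.8% of all tested genes called and 10.5% called higher. CORO2A, an actin-binding subunit, had 76 and 71 counts with sgNeg and 491 and 565 counts with sgNPM1A, a log2 change of 2.73 (SE 0.14, edgeR adjusted p = 2.37e-07). TBL1X, a WD40-repeat subunit that exchanges corepressors, rose from 144 and 127 counts to 318 and 339 counts (log2 change 1.16, SE 0.13, edgeR adjusted p = 8.51e-05). NCOR1 itself was not called, with a log2 change of 0.06 (edgeR adjusted p = 0.581).

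Of 19 partners of class IIa enzymes (MEF2 factors, 14-3-3 proteins and the kinases that move class IIa enzymes out of the nucleus), 15 were tested and 2 were called. That is 13.3% of those tested, below the 20.8% of all tested genes. MEF2C, a MEF2 factor of myeloid and lymphoid progenitors, fell from 1880 and 2019 counts to 794 and 688 counts, or from 76.0 to 26.6 CPM (mean of 2 libraries). This was a log2 change of -1.51 (SE 0.09, edgeR adjusted p = 5.10e-07). MEF2D, another MEF2 factor, had means of 755.4 CPM with sgNeg and 850.1 CPM with sgNPM1A (log2 change 0.17, edgeR adjusted p = 0.104). CAMK4, a calcium-dependent kinase, rose from 15 and 23 counts to 45 and 42 counts (log2 change 1.07, edgeR adjusted p = 0.0204; 0.126 with DESeq2). The CAMK4 call was kept without sgNeg replicate 2 and lost without each of the other 3 libraries. None of the 6 tested 14-3-3 genes was called. The 15 tested partners together had a median log2 change of -0.05.

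Lysine acetyltransferases oppose the deacetylases, and 1 of 10 was called (10.0%, against 20.8% of all tested genes). KAT6B had 22.2 CPM with sgNeg and 17.5 CPM with sgNPM1A (log2 change -0.34, SE 0.10, edgeR adjusted p = 0.0257), and its adjusted p was 0.0632 with the replicate block and 0.0729 with DESeq2. The number of these 10 genes called lower was 4 without sgNeg replicate 2 and 0 without each of the other 3 libraries, and 1 was called higher without sgNeg replicate 1 or without sgNPM1A replicate 2. EP300 had a log2 change of -0.19 (edgeR adjusted p = 0.271) and its paralog CREBBP one of -0.28 (adjusted p = 0.0213), neither called. Of the 13 genes of HDAC6 and HDAC10 substrates and polyamine enzymes, 2 were called higher and 1 lower. The share called, 23.1%, lay next to the 20.8% of all tested genes. SAT1, the acetyltransferase of spermidine and spermine, rose from 294 and 310 counts to 967 and 991 counts (log2 change 1.58, SE 0.09, edgeR adjusted p = 5.05e-07). CTTN, encoding cortactin, an HDAC6 substrate at the actin cortex, fell from 112 and 107 counts to 27 and 30 counts (log2 change -2.05, SE 0.21, edgeR adjusted p = 3.24e-05). TUBA1A, an alpha-tubulin gene, rose as well (log2 change 1.18, edgeR adjusted p = 4.22e-06), and as tubulin genes are close paralogs its reads may be split among them.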

How the data were processed

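RNA was sequenced from 4 OCI-AML3 libraries, 2 with sgNeg and 2 with sgNPM1A. Per the labels and methods, STAR mapped the read pairs to hg38, and the authors deposited unnormalized gene counts. The counting program, strand setting and annotation release are not given in the sources used here, and 0 rows hold ERCC spike-ins. Symbols matched 55603 of 58037 genes.

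Counts were filtered with filterByExpr (minimum count 10), TMM-normalized and fitted with edgeR 4.0.16 in R 4.3.3 (robust quasi-likelihood F test, two-sided), with adjustment over all 15718 tested genes. The SE is the log2 change divided by the square root of F. Totals were 25069484 to 28276391 counts, at which 3 counts are 0.106 to 0.120 CPM, a floor for counting error only. The study calls the libraries biological replicates, and within each condition they differed beyond sampling noise (chi-square per degree of freedom 9.26 and 4.23). With 2 against 2 libraries an exact permutation test reaches no p below 0.333. Alternatives were DESeq2 1.42.0, limma 3.58.1, other size factors, filters and thresholds, blocks and leaving out each library. The fits were tested on simulated data.

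The HDAC genes and lists were chosen with earlier results of these data known. By rule the text names the 10 HDAC genes, NPM1, the other deacetylases, up to 4 called genes per list with the smallest adjusted p, and a fixed set of scaffold and catalytic genes. MIDEAS, cell type markers and genes that overlap HDAC genes were named outside it. The values of 1 gene of the NCoR complex are not reported here. Lengths and shared 50-base words come from GENCODE v44 lifted to GRCh37, positions and promoters from RefSeq on GRCh38.p14, which has no promoter entry for HDAC5.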

Additional observations from a re-analysis of the deposited data

How the results depend on the processing

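The 10 log2 fold changes were refitted under 13 alternatives each, 130 values in all. None changed sign, and 126 left the gene called or not called as before, although adjusted p-values of genes not called crossed 0.05 in some (HDAC3 up to 0.213, HDAC6 up to 0.184, HDAC8 up to 0.235, HDAC5 down to 0.0249). The other 4 were those of HDAC10, which became a call with library size only (log2 change -0.41), with no filter on low counts (-0.37), with the crossed block (-0.37) and without sgNPM1A replicate 1. With each library left out the log2 change of HDAC10 lay between -0.51 and -0.23, of HDAC4 between 0.62 and 0.68 and of HDAC7 between -0.42 and -0.34; a lone library is then assumed to vary like the other condition.

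HDAC genes called lower were thus 2 in those 4 settings, and between 1 and 2 with a library left out. At an unadjusted p 2 were higher and 2 lower, without a fold threshold 4 were higher, and at a fold of at least 2 there were 0 and 0, since no HDAC gene changed 2-fold. That threshold left 498 genes higher and 502 lower among all tested genes, and 2 lower among the related genes, where no fold threshold gave 12 and leaving out a library between 4 and 10 (10 without sgNeg replicate 2). Library size only moved the share of higher calls over all genes from 50.5% to 42.4%. Nothing but the number links same-numbered libraries, whose deviations from the group means had a correlation of -0.130 across tested genes and of -0.523 across the 8856 genes above 10 CPM. The replicate block changed no call among the HDAC genes, and gave 1637 higher and 1604 lower genes against 1653 and 1619. The crossed block, chosen after seeing the data, gave 1955 and 1918. HDAC9, with 77 to 115 counts per library, is the HDAC gene most limited by depth.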
